A study of Mus musculus with 12 samples.

Results

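Cytosolic ribosomal protein genes encode the proteins of the large (Rpl) and small (Rps) subunits of the ribosome that works in the cytosol. They were chosen by symbol: Rpl or Rps with a number, with or without a final a or x, together with Rplp0, Rplp1, Rplp2 and Rpsa. Of 18193 genes tested on the arrays, 42 met this rule and were named alone by at least 1 probe set, 22 of the large and 20 of the small subunit. Rplp1, Rpl3, Rpl5, Rpl10 and Rps27a had no probe set of their own and were not analysed here.

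STHdh cells are striatal lines made from embryonic mice, one line for each form of the huntingtin gene. STHdhQ111/Q111 cells (Q111 cells here) come from knock-in embryos homozygous for the expanded polyglutamine allele HdhQ111, and STHdhQ7/Q7 cells (Q7 cells) from wild-type embryos with the short HdhQ7 allele. Each line was profiled after 6 h at 42 °C and under growth at 33 °C without treatment, both in the same medium with serum and G418, with 3 arrays in each of the 4 groups and 12 arrays in all. Each allele is represented by 1 line, so the allele and the line cannot be told apart. The labels do not say whether replicates were separate cultures, and p-values then measure only the spread between these arrays, which may be technical.

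The ribosomal proteins assemble with ribosomal RNA in fixed proportion, and their mRNAs are among the most abundant in a growing cell. In mammals these mRNAs begin with a run of pyrimidines, the terminal oligopyrimidine tract, through which the mTORC1 kinase and the RNA-binding protein LARP1 control their translation. Heat shock is known to stop ribosomal RNA synthesis and to lower general translation while heat shock mRNAs are translated.

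The start regions of the genes that carry the results are shown with the pyrimidine runs found at or near their annotated starts. Each sequence runs from 40 bases before to 20 bases from the annotated start on, 5′ to 3′ on the strand of the gene, from RefSeq on GRCm38.p6. Capitals mark the run of at least 5 bases of C or T nearest to the annotated start, which is base 41. The marked run of Rps25 ends before that start, so its sequence does not place a tract in the message. The positions are chr2:32961672-32961731 (plus strand) for Rpl12, chr9:120571477-120571536 (plus) for Rpl14, chr9:44407674-44407733 (plus) for Rps25, chr3:90213629-90213688 (minus) for Rps27, chr4:86857348-86857407 (minus) for Rps6, chr7:45128726-45128785 (minus) for Rpl13a and chr7:3704001-3704060 (plus) for Rps9.
Rpl12: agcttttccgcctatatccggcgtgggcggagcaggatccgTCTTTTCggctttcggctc
Rpl14: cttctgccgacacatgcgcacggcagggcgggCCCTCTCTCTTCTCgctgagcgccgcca
Rps25: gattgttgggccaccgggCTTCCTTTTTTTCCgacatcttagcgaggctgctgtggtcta
Rps27: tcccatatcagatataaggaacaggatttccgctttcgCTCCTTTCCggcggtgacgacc
Rps6: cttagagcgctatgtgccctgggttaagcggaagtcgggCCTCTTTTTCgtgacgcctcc
Rpl13a: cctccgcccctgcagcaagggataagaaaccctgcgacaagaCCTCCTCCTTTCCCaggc
Rps9: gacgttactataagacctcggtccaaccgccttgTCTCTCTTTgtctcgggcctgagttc

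A run of at least 5 bases that are C or T was found within 10 bases of the start, on the strand of the gene, in 25 of 43 start windows of the 37 members that the table lists. This is 58.1% of the members' windows, against 34.4% of all 32851 windows. The motif CTTTC on the strand of the gene within 20 bases of the start was in 25.6% of the members' windows, against 5.49% of all. Over whole windows and on both strands, CCGGAAGT, a form of the site of the ETS factors, was in 20.9% of the members' windows, against 3.89% of all. TATAAA was in 11.6%, against 13.6% of all, and GAANNTTC, a core of the heat shock element, was in 6.98%, against 7.86% of all. CTTTC over whole windows and both strands was in 83.7%, against 57.3% of all. These matches describe letters and not bound sites, and the runs of C or T and CTTTC overlap each other.

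The values are log2 levels per probe set, each gene is read from its brightest single-gene probe set by the mean of the 12 arrays, and changes are differences of these levels, given with a standard error (SE). A gene was called at a Benjamini-Hochberg adjusted p under 0.05 over all genes in limma. Levels near the top of an array's scale are compressed, because bright probes approach saturation, and 34 of the 42 members lay there, with means over 13. These ran between 13.05 for Rps2 and 14.18 for Rpl41, while the highest level on an array averaged 14.46 in Q111 cells after heat shock, 14.56 in untreated Q111 cells, 14.39 in Q7 cells after heat shock and 14.52 in untreated Q7 cells. Of the other 8 members, Rps25 (11.84), Rpl14 (10.66), Rpl12 (10.63), Rps6 (10.09) and Rps27 (9.48) had intermediate means, and Rpl39 (6.44) and Rpl37 (5.37) low ones. Rps16 averaged 2.72, inside background range, which ends at 5.14, the highest value of the 27 control probe sets for bacterial RNAs that no one added.

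The 3 arrays of Q111 cells after heat shock had member medians of 13.66, 13.63 and 13.66, against 13.54, 13.54 and 13.57 in untreated Q111 cells. Those of Q7 cells after heat shock were 13.66, 13.65 and 13.65, against 13.56, 13.56 and 13.62 in untreated Q7 cells. The member median was higher on every heat-shocked array than on every untreated array. The median of all genes averaged 6.64 in Q111 cells after heat shock against 7.36 untreated, and 7.01 in Q7 cells after heat shock against 7.37 untreated. On the arrays of either line, then, the members lay higher after heat shock and the middle of the distribution lower. The median change over all genes was far smaller, at -0.018 in Q111 cells and 0.0026 in Q7 cells. The fall of the array median is therefore not the change of a typical gene. A level is a share of an array's signal, so fewer cells with an RNA and less of it per cell cannot be told apart. The difference between the 3′ and 5′ actin control probe sets, which reads RNA integrity and labelling, was 1.25 ± 0.23 in Q111 cells after heat shock against 0.72 ± 0.36 untreated. It was 1.48 ± 0.12 in Q7 cells after heat shock against 0.54 ± 0.16 untreated (SD, n = 3 each). Its part in the results was not tested beyond a fit with it as a covariate, given beside the calls. In Q7 cells the lowest heat-shocked array had 1.35 and the highest untreated array 0.69, so that fit separates it poorly from heat shock there. Calls lost with the covariate in Q7 cells therefore do not tell the 2 apart. Array 3 of the heat-shocked Q111 cells stood apart from arrays 1 and 2 of its group: the SD of probe set differences was 0.756 and 0.845, against 0.389 between arrays 1 and 2. Markers of striatal projection neurons were mostly low, with 1 of 9 above background range in all 4 groups. Of general neuron markers 3 of 5 (Map2, Tubb3 and Rbfox3) were above it in all 4. So were 2 of 5 neural progenitor markers (Nes and Vim) and 1 of 4 astrocyte markers (Slc1a3). Of fibroblast markers 3 of 4 (Col1a1, Col1a2 and Pdgfrb) were above it in all 4, and the other, Lum, was inside it in all 4. For the oligodendrocyte lineage it was 0 of 3, and for microglia 0 of 4.

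After heat shock, 6 of the 42 members rose in Q111 cells and none was called lower. They were Rpl12, which sits at the base of the stalk that recruits elongation factors, the large-subunit protein Rpl14, Rps25, a protein of the small subunit's head used by viral internal ribosome entry sites, Rps27, a small-subunit zinc finger protein, Rps6, the small-subunit protein that S6 kinases phosphorylate, and Rpl22, a large-subunit protein. These are 14.3% of the members, against 20.0% of all genes called higher, 28.2% called lower and 48.1% called in either direction, so the members' share was below the background. At an unadjusted p under 0.05 the members gave 8 higher and 1 lower, against 55.4% of all genes in either direction. The 1 lower was Rps16, in background range. Arrays of the 2 groups did not overlap in 18 members that were higher (42.9%), against 24.2% of all genes, and in 1 that was lower, against 30.5% of all genes. In Q7 cells 4 members rose, Rpl12, Rpl14, Rps6 and Rps25, and none was called lower. These are 9.52% of the members, against 12.3% of all genes called higher, 18.1% called lower and 30.4% in either direction. At an unadjusted p under 0.05, 6 members were higher and 0 lower in Q7 cells, against 40.2% of all genes in either direction. Non-overlapping arrays were found in 14 members that were higher (33.3%), against 21.2% of all genes, and in 1 that was lower, against 27.6%. The calls are those of limma.

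The median change over the 42 members was 0.13 in Q111 cells, beside a median of -0.018 over all genes. In Q7 cells the members' median was 0.052, beside 0.0026 over all genes. Members with a change above 0 numbered 36 in Q111 cells and 31 in Q7 cells. The changes ran between -0.31 (Rps16) and 2.29 (Rpl12) in Q111 cells, and between -0.23 (Rps2) and 1.58 (Rpl12) in Q7 cells. The large-subunit members had medians of 0.085 in Q111 cells and 0.033 in Q7 cells, and the small-subunit members 0.14 and 0.079. These values rest on the deposited scaling. With each array centred on its median gene, all 42 members were called higher in Q111 cells, against 60.4% of all genes. In Q7 cells 13 were called higher (31.0%), against 26.6% of all genes. This centring adds 0.727 to every change in Q111 cells and 0.352 in Q7 cells. Those shifts are far larger than the median changes over all genes, so they lift the typical gene as well as the members. Centring arrays on the members themselves brings the members' median near 0 by construction, and in Q7 cells it was then -0.019. With arrays centred on the hybridization controls, the members' median in Q7 cells was -0.069.

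Centring on the hybridization controls, RNAs added to every sample, ended several calls. In Q111 cells those of Rps27 (adjusted p = 0.121), Rps6 (0.119) and Rpl22 (0.591) were lost, and Rpl12, Rpl14 and Rps25 were called. In Q7 cells those of Rpl14 (adjusted p = 0.0682), Rps25 (0.316) and Rps6 (0.196) were lost and Rpl12 was called. The controls' own medians were 12.10 ± 0.43 in Q111 cells after heat shock against 12.13 ± 0.47 untreated, and 11.70 ± 0.23 in Q7 cells after heat shock against 11.58 ± 0.21 untreated (SD, n = 3 each), a wider spread between arrays than that of the member medians.

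**Figure D1:**
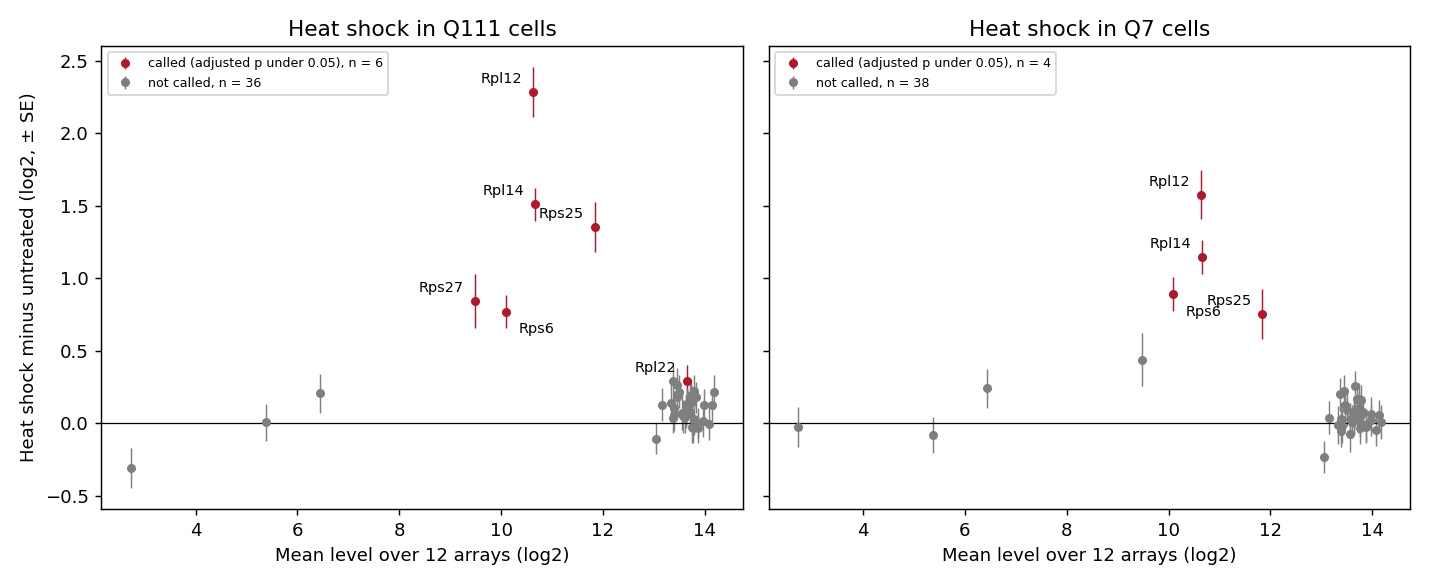
Change after heat shock (log2, ± SE) of the 42 members against their mean level over the 12 arrays (log2), in Q111 cells on the left and Q7 cells on the right. Red points are called members, 6 in Q111 cells and 4 in Q7 cells, and grey points are not called. The members with mean levels between 9 and 12 show the largest rises, while the 34 members with means over 13 lie between -0.11 and 0.29 in Q111 cells and between -0.23 and 0.26 in Q7 cells.

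The size of a member's change differed with where its probe set lay on the scale. The 4 members with mean levels of 9 to 11 were all called higher in Q111 cells, with changes of 0.77 to 2.29. In Q7 cells 3 of these 4 were called higher. Rps25, between 11 and 12, was called in both lines. The 2 members between background range and 9 were not called in either line: Rpl37 had 0.0072 in Q111 cells and -0.079 in Q7 cells, and Rpl39 0.21 and 0.24, where 61.4% of other genes in that class were called in Q111 cells and 38.8% in Q7 cells. Among all other genes, 57.7% with means of 9 to 11 were called in Q111 cells and 46.2% in Q7 cells, most of them lower: 660 higher and 1505 lower in Q111 cells, 764 higher and 972 lower in Q7 cells. Of the 34 members over 13, 1 was called in Q111 cells (Rpl22) and 0 in Q7 cells. At an unadjusted p under 0.05, 1 of them was higher in Q7 cells, against 40.2% of genes of all levels in either direction. The median changes of these 34 were 0.11 in Q111 cells and 0.035 in Q7 cells. Of the other 110 genes over 13, 24.5% were called in Q111 cells (18 higher, 9 lower) and 17.3% in Q7 cells (10 higher, 9 lower). The members over 13 also varied little: their median residual SD was 0.054, against 0.0785 for the other genes over 13. These classes were set with the values known, and the level, the number of probe sets and the choice of the brightest one are not separate from each other. The suffix of the probe set name went with level too. Of 11 members read from sets with the plain suffix _at, 4 lay over 13 and 5 were called higher in Q111 cells. Of 16 with _a_at and 13 with _x_at, 16 and 12 lay over 13 and 0 were called there. Of 2 with _s_at, 2 lay over 13 and 1 was called. The part of the suffix was not tested.

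Rpl12 had 11.77, 11.79 and 11.73 on the 3 arrays of Q111 cells after heat shock, against 9.34, 9.63 and 9.46 on those of untreated Q111 cells. In Q7 cells it had 11.30, 11.41 and 11.60 after heat shock, against 9.76, 9.58 and 10.23 untreated. All 6 heat-shocked arrays were far above all 6 untreated ones. Rpl12, read from its only single-gene probe set, showed the largest change of any member in either line. The rise was 2.29 ± 0.17 in Q111 cells (SE, n = 3 each, 4.88-fold, adjusted p = 5.53e-06 in limma) and 1.58 ± 0.17 in Q7 cells (2.99-fold, adjusted p = 6.55e-05). With the actin difference as a covariate the Q7 change was 1.23 with an adjusted p of 0.0925, and the Q111 call held at 2.09 with an adjusted p of 0.000656. Of the other proteins of the same stalk, Rplp0 and Rplp2 were measured and did not pass the test. Rplp0, to which the others of the stalk bind, had a difference of 0.090 in Q111 cells and 0.025 in Q7 cells, and Rplp2 of -0.0017 and -0.044, both measured over 13.

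Rpl14 had 11.20, 11.06 and 11.12 in Q111 cells after heat shock, against 9.55, 9.60 and 9.69 in untreated Q111 cells. It had 11.58, 11.44 and 11.55 in Q7 cells after heat shock, against 10.37, 10.30 and 10.46 in untreated Q7 cells. No groups overlapped in this gene, in either the heat shock or the line comparisons, and Q111 arrays were below Q7 arrays at both temperatures. The rise was 1.51 ± 0.11 in Q111 cells (SE, adjusted p = 6.01e-06 in limma) and 1.15 ± 0.11 in Q7 cells (adjusted p = 4.31e-05).

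Rps25 had 12.19, 12.004 and 12.37 in Q111 cells after heat shock, against 10.56, 10.92 and 11.02 in untreated Q111 cells. It had 12.43, 12.66 and 12.56 in Q7 cells after heat shock, against 11.67, 11.64 and 12.07 in untreated Q7 cells. Heat-shocked arrays were above untreated ones in each line, and untreated Q111 cells were the lowest group. The rise was 1.35 ± 0.17 in Q111 cells (SE, adjusted p = 0.000119 in limma) and 0.75 ± 0.17 in Q7 cells (adjusted p = 0.00664). With the actin difference as a covariate the Q7 change was 0.57 with an adjusted p of 0.498.

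Rps6 had 10.52, 10.50 and 10.48 in Q111 cells after heat shock, against 9.75, 9.74 and 9.69 in untreated Q111 cells. In Q7 cells it had 10.48, 10.46 and 10.62 after heat shock, against 9.71, 9.69 and 9.49 untreated. The 2 lines had nearly the same levels in each condition, and heat-shocked and untreated arrays were well apart. The rise was 0.77 ± 0.12 in Q111 cells (SE, adjusted p = 0.000333 in limma) and 0.89 ± 0.12 in Q7 cells (adjusted p = 0.00021). The Q7 call was lost with the actin covariate (0.85, adjusted p = 0.101) and with the mean of the gene's probe sets (0.30, adjusted p = 0.102), of which the second lies in background range.

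Rps27 had 10.00, 10.02 and 9.40 in Q111 cells after heat shock, against 8.86, 8.87 and 9.18 in untreated Q111 cells. It had 9.77, 9.66 and 9.93 in Q7 cells after heat shock, against 9.29, 9.25 and 9.503 in untreated Q7 cells. The groups did not overlap in either line, but array 3 of the heat-shocked Q111 cells lay closer to the untreated arrays than the other two did. The rise was 0.84 ± 0.18 in Q111 cells (SE, adjusted p = 0.00328 in limma), and 1.05 without that array. In Q7 cells the change was 0.44 ± 0.18 (adjusted p = 0.0966), which was called when array 3 of the heat-shocked Q111 cells was left out (adjusted p = 0.0301).

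Rpl22, measured over 13, had 13.81, 13.78 and 13.79 in Q111 cells after heat shock, against 13.54, 13.54 and 13.41 in untreated Q111 cells. It had 13.80, 13.78 and 13.84 in Q7 cells after heat shock, against 13.57, 13.55 and 13.54 untreated. The heat-shocked arrays lay above the untreated ones in both lines, by a small and even step. The change was 0.29 ± 0.11 in Q111 cells (SE, adjusted p = 0.0415 in limma) and 0.26 ± 0.11 in Q7 cells (adjusted p = 0.0959). The Q111 call was lost in 11 of 12 fits that left out 1 array, with adjusted p-values up to 0.12, and also with the actin covariate (adjusted p = 0.239).

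**Figure D2:**
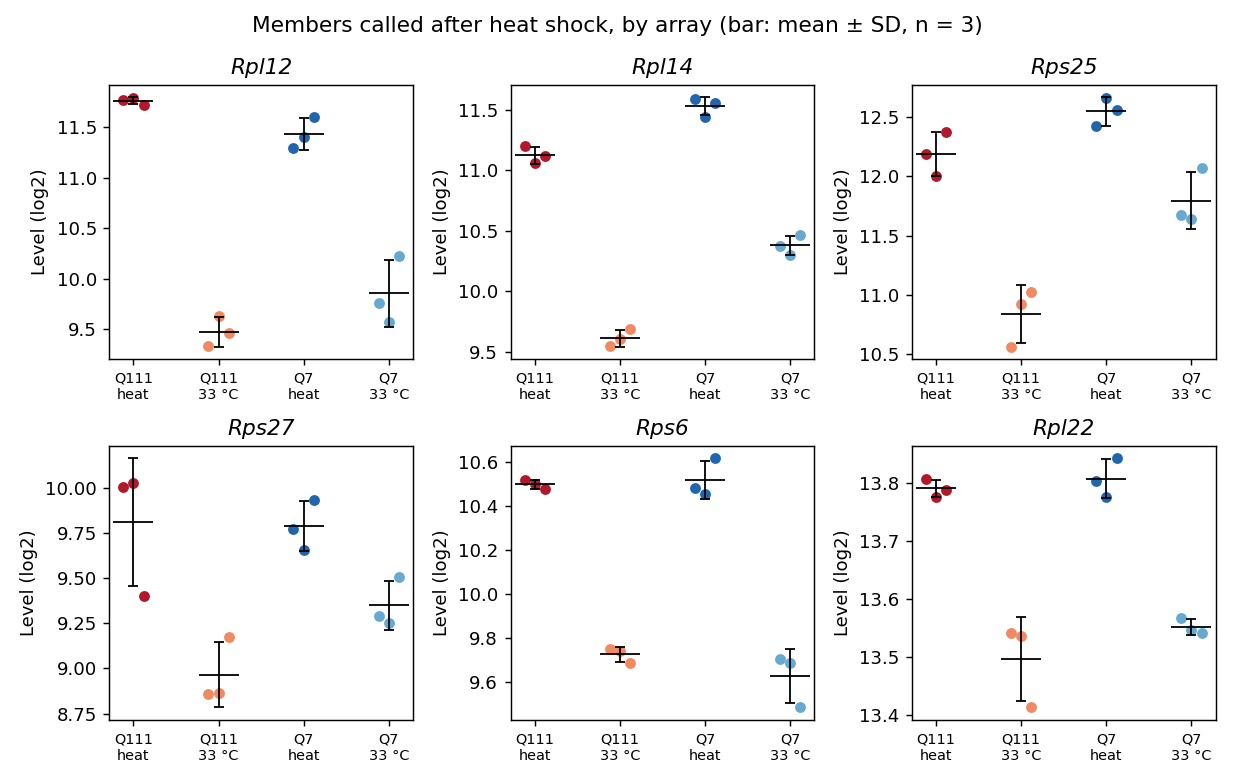
Levels (log2) of the 6 members called higher in Q111 cells after heat shock, by array, with the mean ± SD of each group (n = 3 arrays). Groups run from Q111 cells after heat shock and untreated to Q7 cells after heat shock and untreated, and each panel has its own scale, which does not start at 0. Rpl12, Rpl14 and Rps25 show the widest gaps, and the gap of Rpl22 is under 0.5 on the log2 scale.

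The other named members lay over 13 and none passed the test in either line. Those of the small subunit with the largest differences were Rps14 and Rps19, which are mutated or lost in inherited and acquired anaemias in humans. Rps14 had 13.56, 13.59 and 13.44 in Q111 cells after heat shock, against 13.28, 13.16 and 13.28 untreated. Rps19 had 13.59, 13.53 and 13.58 in Q111 cells after heat shock, against 13.24, 13.27 and 13.39 untreated. Their groups did not overlap, and the differences were 0.29 ± 0.11 for Rps14 (adjusted p = 0.0523 in limma) and 0.27 ± 0.11 for Rps19 (adjusted p = 0.0705). In Q7 cells they were 0.20 and 0.22. Rps3, at the entry of the mRNA channel, had differences of 0.18 in Q111 cells and 0.17 in Q7 cells. Rpl13a, a protein of the large subunit that in human cells also joins a translation silencing complex, had 0.22 and 0.16, and Rpl10a, a protein of the stalk near the tRNA exit site, 0.20 and 0.17.

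Smaller differences were those of Rpl11, which with 5S ribosomal RNA can bind MDM2 and so stabilize p53, at 0.079 in Q111 cells and 0.033 in Q7 cells. Rpl38, which in mouse embryos is needed for translation of Hox mRNAs, had differences of 0.030 in Q111 cells and 0.057 in Q7 cells. Rpsa, also known as a laminin receptor, had 0.13 and 0.067, and the X-linked Rps4x 0.13 and 0.037. Rpl8, near the peptidyl transferase centre, had 0.10 and -0.019, and Rps15 0.046 and 0.012. Rpl4, which lines the exit tunnel, had -0.028 in Q111 cells and -0.033 in Q7 cells. Rps2 was the member over 13 with the lowest difference, at -0.11 in Q111 cells and -0.23 in Q7 cells. Its levels were 13.01, 12.96 and 12.98 in Q7 cells after heat shock, against 13.22, 13.23 and 13.20 untreated, so those groups did not overlap, though the adjusted p was 0.133.

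**Figure D3:**
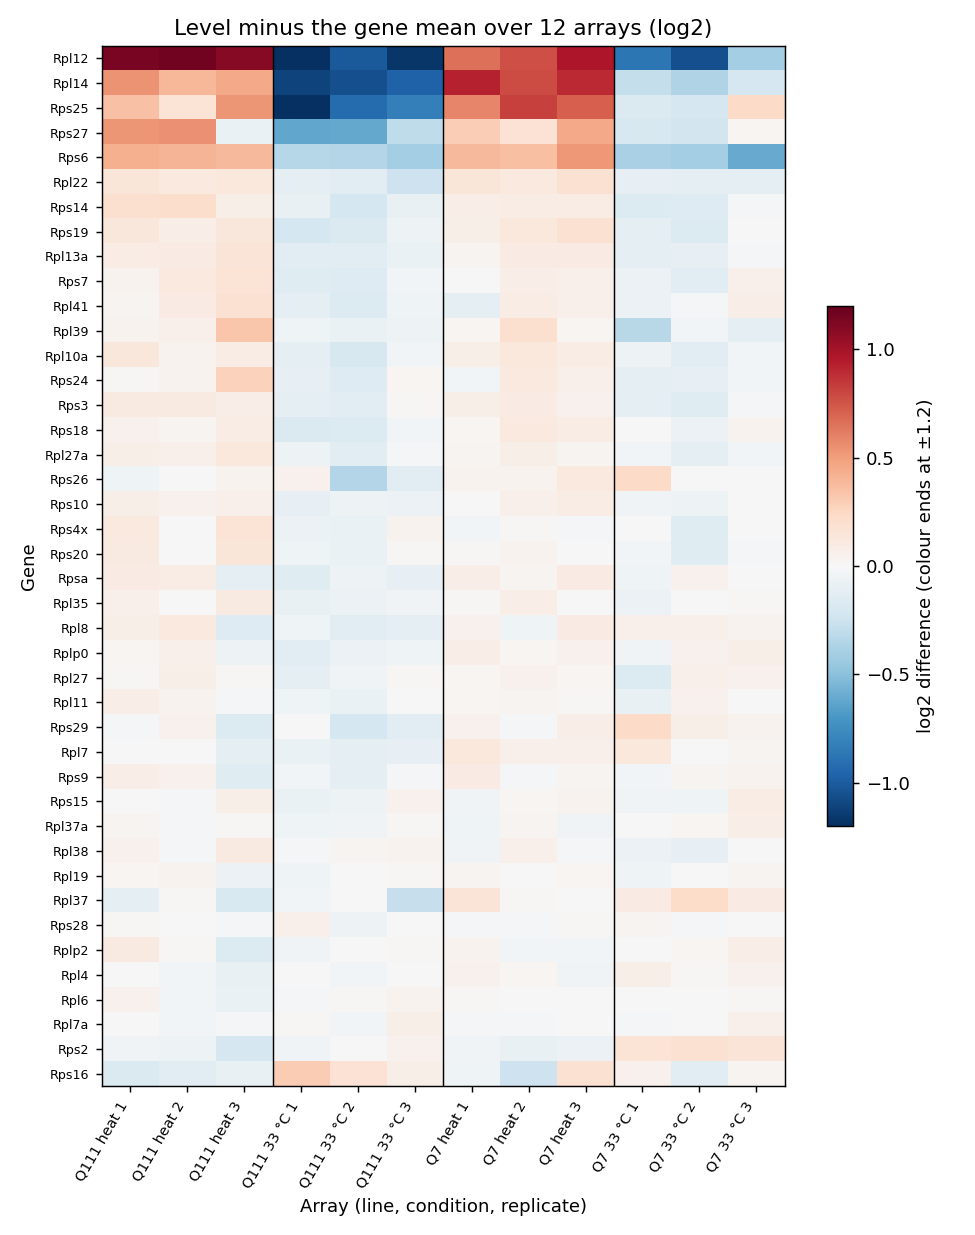
Level of each of the 42 members on each of the 12 arrays, as the log2 difference from the gene's mean over all arrays, with genes in the order of their change in Q111 cells. Columns are the 3 arrays of Q111 cells after heat shock, untreated Q111 cells, Q7 cells after heat shock and untreated Q7 cells. The top 5 rows carry nearly all of the strong colour, and the rows of members over 13 are pale.

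How large an error is given to the members over 13 sets how many of them are called. Moderating all genes towards 1 common spread, as for the calls above, gave these members a median SE of 0.11. When the spread was allowed to follow the mean level, their median SE was 0.0502. That fit called 17 members higher (40.5%) and 0 lower in Q111 cells, against 20.8% of all genes higher, 28.5% lower and 49.3% in either direction, and 12 of the 17 were over 13. In Q7 cells it called 10 higher (23.8%) and 1 lower (2.38%), against 13% of all genes higher, 18.7% lower and 31.8% in either direction, 7 of these 11 being over 13. The members' share of higher calls thus lay above that of all genes in this fit and below it with the common spread, in both lines. The 6 members called in Q111 cells and the 4 called in Q7 cells with the common spread were among them. The members added in both lines were Rps14, Rps19, Rps3, Rpl13a and Rpl10a, and Rpl22 was added in Q7 cells. The member called lower was Rps2 in Q7 cells (-0.23, adjusted p = 0.00578).

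The other probe sets of the members gave a second reading. Besides the 42 chosen sets there were 52 single-gene sets for 22 members, 46 of them above background range, and all single-gene sets were fitted together. Rpl12, Rpl14, Rps25 and Rps27 had only their chosen set, so their changes have no second reading. In Q111 cells 11 of the 46 were called higher, from 8 genes, and 6 lower, from 5 genes, against 17.5% of all single-gene sets called higher and 26.5% lower. In Q7 cells 8 were called higher, from 7 genes, and 1 lower, against 11.3% and 17.5% of all single-gene sets. The 28 sets over 13 had a median change of 0.21 in Q111 cells with 4 higher and 0 lower. The 18 sets up to 13 had a median of 0.23 with 7 higher and 6 lower, and ran between -1.91 and 1.21.

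Rpl13a had 4 single-gene probe sets, and the dimmer the set, the larger its difference. At mean levels of 13.78, 13.14, 13.04 and 12.76 the differences in Q111 cells were 0.22, 0.63, 0.92 and 1.21, the last 3 called in limma with adjusted p-values of 0.00269, 0.00147 and 0.000314. In Q7 cells they were 0.16, 0.36, 0.65 and 0.92, the last 2 called. The dimmest set had 13.15, 13.23 and 13.24 in Q111 cells after heat shock, against 11.65, 12.13 and 12.23 untreated, and 13.36, 13.39 and 13.34 in Q7 cells after heat shock, against 12.21, 12.42 and 12.72 untreated. The brightest set had 13.87, 13.88 and 13.94 in Q111 cells after heat shock, against 13.66, 13.65 and 13.70 untreated. The groups of either set did not overlap, and those of the dimmest were far wider apart. Sets of 1 gene share its messages but not their probes, so the 4 are not replicates.

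A dimmer set with a called rise was also found for several other members, while some dimmer sets were called in neither direction. Rps3 had a set at 11.54 that rose by 0.86 in Q111 cells and 0.89 in Q7 cells. For Rps9, a small-subunit protein that helps hold the mRNA entry site, a set at 9.46 rose by 1.205 and 1.24, while the chosen set at 13.57 had 0.048 and 0.028. Rps24 had a set at 9.72 that rose by 0.83 and 1.15, and Rps10 one at 7.22 that rose by 1.21 and 0.91. Rpl22 had a set at 12.58 that rose by 0.49 and 0.45, and Rpsa one at 5.23, just above background range, that rose by 0.94 and 0.998. In Q111 cells further sets of Rps10 (13.09, 0.43) and Rps14 (13.07, 0.37) were called too.

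Sets of 5 members went the other way in Q111 cells. Rpl35, a protein at the exit of the tunnel, had a set at 7.46 that fell by 1.33 in Q111 cells (adjusted p = 0.00814 in limma) and by 1.12 in Q7 cells (adjusted p = 0.0266), while its 5 sets over 13 had differences of 0.078 to 0.21 in Q111 cells. Rpl41, the smallest ribosomal protein, had sets at 9.76 and 9.74 with changes of -0.96 and -0.95 in Q111 cells. A set of Rps18 at 6.97 had -1.10, one of Rps20 at 8.38 had -1.12 and one of Rps9 at 7.02 had -1.91, all called in Q111 cells and none in Q7 cells. The set of Rps9 that fell had 6.01, 6.16 and 4.27 in Q111 cells after heat shock, against 6.98, 7.92 and 7.28 untreated. Array 3 of the heat-shocked Q111 cells was the lowest of all 12 arrays here, and also the lowest in the falling sets of Rpl35 (5.63), Rpl41 (8.35 and 8.08), Rps18 (5.57) and Rps20 (6.55). Without that array, 10 sets were called higher and 5 lower in Q111 cells. The changes were then -1.31 for Rps9, -0.95 for Rpl35, -0.83 for Rps18 and -0.59 for Rps20 (adjusted p = 0.0476 in limma), and the sets of Rpl41 had -0.71 and -0.60, the second no longer called (adjusted p = 0.0746). The higher call that was lost was that of the Rps10 set at 13.09 (0.39, adjusted p = 0.057).

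**Figure D4:**
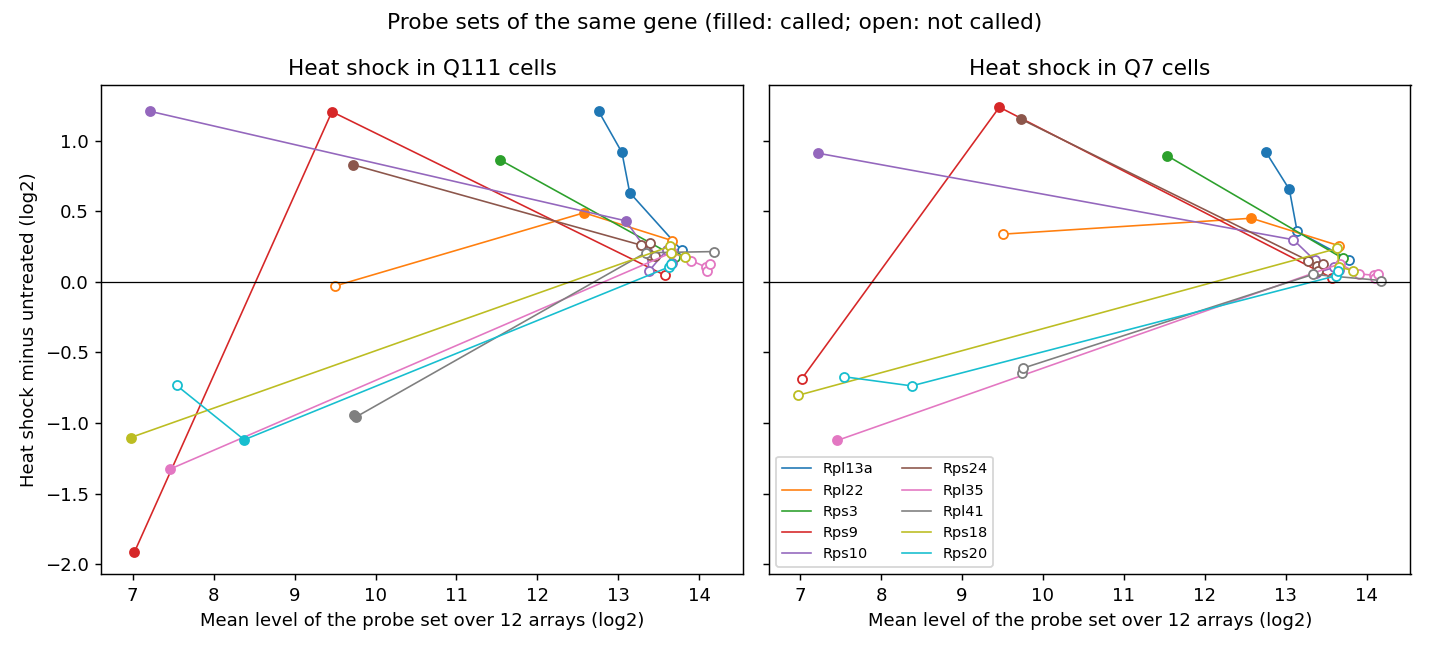
Change after heat shock (log2) of single-gene probe sets above background range, against their mean level over the 12 arrays (log2), for 10 members with several sets, in Q111 cells on the left and Q7 cells on the right. Lines join the sets of 1 gene, and filled points are called. Most sets over 13 lie close to 0, apart from 2 of Rpl13a (0.63 and 0.92 in Q111 cells), and among dimmer sets those of Rpl13a, Rps3, Rps10 and Rps24 lie above 0, those of Rpl35, Rpl41, Rps18 and Rps20 below 0, and those of Rps9 on both sides.

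The responses of the 2 lines were then set against each other. The difference of the heat shock changes, Q111 minus Q7, had 0 called members, against 5.72% of all genes (1.21% higher, 4.51% lower). At an unadjusted p under 0.05 in limma 3 members were higher and 0 lower, against 21.2% of all genes in either direction. These 3 were Rpl12 with 0.71 ± 0.24 (SE, adjusted p = 0.117), Rps25 with 0.60 ± 0.25 (adjusted p = 0.189) and Rpl14 with 0.36 ± 0.16 (adjusted p = 0.227). The median over the members was 0.048, beside -0.0065 over all genes, with 35 members above 0. The heat shock changes of both lines enter this difference, so it does not stand apart from them. None of the 46 other single-gene sets was called for it, against 0.853% of all single-gene sets higher and 3.03% lower.

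At 33 °C, Rpl14 and Rps25 were lower in Q111 than in Q7 cells, and no member was called higher. They are 4.76% of the members, against 5.68% of all genes called lower, 5.11% called higher and 10.8% in either direction. Rpl14 averaged 9.61 ± 0.069 in untreated Q111 cells and 10.38 ± 0.080 in untreated Q7 cells (SD, n = 3), a difference of -0.77 ± 0.11 (SE, adjusted p = 0.000858 in limma). Rps25 averaged 10.84 ± 0.24 in untreated Q111 cells and 11.80 ± 0.24 in untreated Q7 cells, a difference of -0.96 ± 0.17 (adjusted p = 0.00325). Both calls held in all 12 fits that left out 1 array. Rpl12, at -0.38, was the third member below an unadjusted p of 0.05 (adjusted p = 0.241). Of all genes 20.3% passed that unadjusted threshold in either direction. Arrays did not overlap in 11 members that were lower in Q111 cells (26.2%), against 14.2% of all genes, and in 1 that was higher, against 12.9%. None of the 46 other single-gene sets was called, against 4.60% of all single-gene sets lower and 3.95% higher. The median over members was -0.046, beside -0.0041 over all genes.

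After heat shock, 1 member was called between the lines: Rpl14 averaged 11.12 ± 0.070 in Q111 cells and 11.53 ± 0.074 in Q7 cells (SD, n = 3), a difference of -0.40 ± 0.11 (SE, adjusted p = 0.0272 in limma). This call was lost in 4 of 12 fits that left out 1 array, those without array 2 or 3 of the heat-shocked Q111 cells or array 1 or 3 of the heat-shocked Q7 cells, with adjusted p-values up to 0.105. No member was called higher, and none but Rpl14 passed an unadjusted p of 0.05, against 35.2% of all genes in either direction. The background was 15.5% of all genes called lower, 6.58% called higher and 22.1% in either direction. Rps25 differed by -0.36 (adjusted p = 0.165) and Rpl12 by 0.33 (adjusted p = 0.196). Arrays did not overlap in 4 members that were lower in Q111 cells, against 23.3% of all genes, and in 1 that was higher, against 14.0%. Of the other single-gene sets, 4 from 3 genes were lower in Q111 cells, against 13.2% of all single-gene sets, and none was higher, against 5.21%. The 4 were those of Rpl41 (-1.03 and -1.13), Rps9 (-1.78) and Rpl22 (-0.83). Without array 3 of the heat-shocked Q111 cells 3 of them were called, with the set of Rps9 at -1.18, and the set of Rpl41 at 9.74 was not (-0.79, adjusted p = 0.0503). The line comparisons share arrays with the heat shock comparisons, and levels of 4 of 5 progenitor markers (Nes, Sox2, Fabp7 and Pax6) were lower in Q111 cells in both conditions by over 1.5, while Vim was close in the 2 lines. Sox2 had the widest gap, at 3.96 and 4.71 in Q111 cells after heat shock and untreated, against 10.96 and 10.60 in Q7 cells, and Vim lay at 13.49 and 13.78 on Q111 arrays, with 13.59 and 13.80 for Q7. The part of such differences in the results was not tested.

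A further 110 probe sets name a gene of the symbol rule together with other genes, so no single gene can be read from them, and they were fitted with all non-control probe sets. In Q111 cells after heat shock 27 of them were called higher and 3 lower, against 19.8% and 22.3% of all probe sets. In Q7 cells 14 were called higher and 2 lower, against 10.0% and 14.1%. As with the members, the calls lay mostly below 13: of the 26 such sets between background range and 13, 21 were higher in Q111 cells and 14 in Q7 cells. For the difference of the changes 0 were higher and 2 lower, against 0.611% and 2.07%. At 33 °C, 0 were higher and 2 lower in Q111 cells, against 3.16% and 3.62%, and after heat shock 0 were higher and 5 lower, against 4.73% and 10.7%.

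Genes related to the members were described from lists. Fau, whose product is cleaved to give a small-subunit protein, and Rps3a1 were the measured 2 of 5 ribosomal genes outside the symbol rule, and neither was called. Of 6 measured paralogs of ribosomal proteins, 4 rose in each line, and none fell. Over all genes 20.0% were called higher and 28.2% lower in Q111 cells, and 12.3% and 18.1% in Q7 cells. Rps27l, the paralog of Rps27, rose by 0.83 ± 0.13 in Q111 cells (SE, adjusted p = 0.000437 in limma) and 0.73 ± 0.13 in Q7 cells, at a mean level of 13.02. Rpl22l1, the paralog of Rpl22, rose by 0.69 ± 0.12 in Q111 cells and 0.76 ± 0.12 in Q7 cells (adjusted p = 0.000837), at 12.70. Rpl7l1 rose by 0.58 and 0.55, and Rpl39l by 1.21 and 0.85 with a mean of 4.35 inside background range.

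Of 17 measured translation genes whose mRNAs carry the same tract, 1 rose and 2 fell in Q111 cells, and 1 rose in Q7 cells. Eif3m, a subunit of initiation factor eIF3, rose by 0.70 in Q111 cells and 0.68 in Q7 cells. Eif4b, a helper of the mRNA helicase, fell by 0.47 in Q111 cells, and Eif3l, another eIF3 subunit, by 0.37. The median of this list was 0.063 in Q111 cells and 0.036 in Q7 cells, and 10 of its 17 genes lay over 13. Of 11 measured genes of mTORC1, LARP1 and the S6 kinases, 1 rose and 6 fell in Q111 cells, and 1 rose and 3 fell in Q7 cells. Beside both lists, 20.0% of all genes were called higher and 28.2% lower in Q111 cells, and 12.3% and 18.1% in Q7 cells. Rheb, which activates mTORC1, rose by 0.61 in Q111 cells and 0.54 in Q7 cells. Rptor, the mTORC1 subunit that binds substrates, fell by 2.45 in Q111 cells and by 1.64 in Q7 cells, and Larp1 by 1.06 and 0.88.

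Mitochondrial ribosomal proteins, which build the separate ribosome of the mitochondrion, gave 22 higher and 7 lower of 76 in Q111 cells, and 14 higher and 4 lower in Q7 cells. The shares of all genes were 20.0% higher and 28.2% lower in Q111 cells, and 12.3% and 18.1% in Q7 cells. The list's median change was 0.24 in Q111 cells and 0.16 in Q7 cells, and 1 of its genes lay over 13. Mrpl50 rose by 1.22 in Q111 cells and 1.42 in Q7 cells. Mrpl48 rose by 1.08 in Q111 cells and Mrps33 by 1.06 in Q7 cells. Among those that fell were Mrps27 (by 1.23) and Mrps2 (by 1.05) in Q111 cells, and Mrpl2 (by 1.30) and Mrpl55 (by 1.17) in Q7 cells. The cytosolic members, at 6 higher of 42 in Q111 cells and 4 in Q7 cells, differ from this list in level, and the difference between the lists was not tested.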

How the data were processed

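Total RNA of 12 samples, 3 per group, was labelled and hybridized to Affymetrix MG430 2.0 arrays, per the labels. The authors deposited log2 levels, 1 for each probe set, computed with RMA, per the submitters' processing notes; the program with its version, and the chip definition, were not given in the sources used here. RMA corrects background, normalizes quantiles and summarizes probes, and it keeps the compression of bright probes.

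Of the 45101 deposited probe sets, 64 were controls; 34945 named 1 gene (34741 matched by gene identifier), 932 several and 9160 are unnamed here. Each of 18193 genes was represented by its single-gene probe set with the highest mean. Members and gene lists were chosen with earlier results of these data known.

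limma 3.58.1 in R 4.3.3 fitted the means of the 4 groups on all 12 arrays, with 8 residual and 3.23 prior degrees of freedom, for 5 contrasts, two-sided, adjusting over all genes by Benjamini-Hochberg. Python 3.11.15 with pandas 2.3.3 joined tables and searched the start regions. The fit was tested on simulated data with known changes in Q111 cells after heat shock. It recovered 55 of 100 changes of 1 on the log2 scale and 89 of 100 changes of 2, with 5 false calls. Changes of 1 were thus often missed in the simulation. There only 100 of 18193 genes were given each size of change, while 48.1% of genes were called in this comparison of the data. The adjustment is stricter where fewer genes change, so the share missed does not carry over to the data. Replicate numbers come from the labels. For untreated arrays, those with equal numbers in the 2 lines deviated together from their group means (r = 0.516, 0.402 and 0.577). The labels give no pairing, and the main fit did not pair arrays. A block by replicate number was used only in alternative fits. No replicate was a duplicate of another: a pair shared 10 to 60 identical values. The number of arrays limits precision, and scanner files were not used here.

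Named members were the called members with the largest changes, up to 5 in each direction and contrast, a fixed list of well-known members, and members with an opposite probe set; of related lists up to 2 called genes in each direction were named. Rps10, Rps24, Rps16, Rpl39, Rpl37, Rpl7l1, Fau, Rps3a1 and values of Larp1 in Q111 cells were added after their values were seen. A list of genes with a similar pattern is not given, because the arrays fall into separate clusters. Alternatives covered the choice of probe set, low levels, scaling, spread, weights, samples fitted, the replicate block, the threshold, and each array left out; the actin covariate, centring on hybridization controls, the block on untreated arrays alone and the probe sets without 1 array were chosen after seeing the data.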

Additional observations from a re-analysis of the deposited data

Results flagged for a closer look

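Probe sets that name a gene of the symbol rule together with other genes were outside the comparisons, since no single gene can be named from them, and they showed changes. These 110 sets name 42 genes of the rule, 27 of them without a probe set of their own. In a limma fit of all non-control probe sets, 27 of the 110 were called higher in Q111 cells after heat shock and 14 in Q7 cells. The shares of all non-control probe sets called higher were 19.8% and 10.0%. Of the 26 such sets up to 13 and above background range, 21 were higher in Q111 cells and 14 in Q7 cells, with median changes of 0.90 and 0.57. Of the 78 over 13, 6 were higher in Q111 cells and 0 in Q7 cells, with median changes of 0.14 and 0.094.

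For the difference of the heat shock changes between the lines, 2 of these 110 sets were called, both lower. Of all non-control probe sets 2.07% were called lower and 0.611% higher, so the count of 2 does not set the 110 apart. One, at a mean level of 6.64, had -1.005 in Q111 cells and 0.71 in Q7 cells, a difference of -1.72 (adjusted p = 0.0316). The other, at 8.11, had -1.54 in Q111 cells and -0.67 in Q7 cells, a difference of -0.87 (adjusted p = 0.0486).

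Among the related genes, the heat shock change of Rps6kb2, an S6 kinase, differed between the lines by -1.60 ± 0.36 (SE, Q111 minus Q7, adjusted p = 0.0267 in limma). It averaged 6.50 ± 0.56 in Q111 cells after heat shock against 8.72 ± 0.13 untreated, and 8.15 ± 0.35 in Q7 cells after heat shock against 8.77 ± 0.051 untreated (SD, n = 3). The change was -2.22 in Q111 cells and -0.62 in Q7 cells (adjusted p = 0.0879).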

How the results depend on the processing

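The members called after heat shock depended on the choice of probe set, the scaling and the spread. In Q111 cells, where 6 were called, there were 11 with the mean of all probe sets (10 higher, 1 lower), 14 with the dimmest set above background range (10 higher, 4 lower), 18 with every set tested separately, 42 with arrays centred on the median of genes, 17 with a variance trend with or without robust fitting, and 3 with arrays centred on the hybridization controls. In Q7 cells, where 4 were called, these gave 7, 9, 13, 13, 11 and 1, array weights gave 9 and the actin covariate 1. The share of all genes called in either direction was 46.5% in Q111 cells and 29.2% in Q7 cells with the mean, 43.7% and 26.8% with the dimmest set, 49.3% and 31.8% with the trend, 24.7% and 13.1% with the hybridization controls, 52.3% and 51.1% with array weights, and 24.1% and 2.40% with the actin covariate. For the difference of the changes, centring on the median of genes gave 1 (Rpl12), against 6.83% of all genes. Between the lines after heat shock, where 1 was called, there were 5 with the mean, 3 with the dimmest set, 6 with every set, 2 with gene-median centring (both higher) and 3 with array weights. There were 0 with the groups compared alone, an adjusted p under 0.01, the actin covariate or the hybridization controls. In this comparison 20.8% of all genes were called with the mean, 18.4% with the dimmest set, 34.6% with gene-median centring and 49.1% with array weights. With the settings that gave 0 members, the shares were 14.7%, 12.3%, 18.3% and 15.5% in the order named. At 33 °C none of these moved the count of 2 by over 1.5 times. Centring on the median of genes shifts every change by 0.727 in Q111 cells and 0.352 in Q7 cells, and it called 73.3% and 37.9% of all genes, 10992 higher and 2339 lower in Q111 cells, 4834 higher and 2058 lower in Q7 cells.

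The median change in Q111 cells (0.13) became 0.85 with gene-median centring, 0.024 with centring on the members, 0.053 with a further quantile normalization, 0.15 with the actin covariate and 0.15 with the hybridization controls. In Q7 cells (0.052) it became 0.40, -0.019, 0.027, 0.082 and -0.069 with these, and 0.077 with the mean of probe sets. For the difference (0.048) it became 0.42, 0.018 and 0.012 with the first 3 and 0.20 with the hybridization controls. At 33 °C (-0.046) it became -0.11 with the mean, -0.13 with the dimmest set, -0.014 with centring on the members and -0.59 with the hybridization controls. After heat shock (-0.0034) it became -0.027, -0.038, 0.37 with gene-median centring and -0.40 with the hybridization controls. Centring on the members removes most of their median by construction, so those values do not show how the median depends on scaling.

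Leaving out 1 array gave 5 to 6 called members in Q111 cells, 4 to 5 in Q7 cells, 0 for the difference, 2 at 33 °C and 0 to 1 after heat shock. The shares of all genes called were then 39.6% to 47.1%, 22.3% to 36.3%, 2.08% to 6.80%, 8.08% to 13.2% and 14.3% to 22.8%. The members' medians ran from 0.11 to 0.14, 0.044 to 0.071, 0.035 to 0.072, -0.064 to -0.021 (the last without untreated Q7 array 3) and -0.017 to 0.0095. With the replicate block, counts were 5, 4, 0, 2 and 1, against 47.9%, 30.2%, 6.10%, 10.5% and 22.2% of all genes. With the block on untreated arrays alone 2 were called at 33 °C, against 19.8% of all genes. The labels give no pairing by number. The block ended the call of Rpl22 in Q111 cells (adjusted p = 0.0641) and no other of a named member. Same-number correlations were 0.0968, 0.18 and 0.241 for heat shock in Q111 cells, 0.146, -0.339 and -0.101 in Q7 cells, and 0.345, -0.497 and -0.315 between heat-shocked lines. Arrays of different numbers in the heat-shocked lines had correlations between -0.491 and 0.588.

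Among values of named members that were called under either setting, 14 turned sign. A further 163 values turned sign without being called under either, and so did 64 with 1 array left out, all 64 within 0.0851 of 0. With the dimmest set, Q111 changes were -0.029 for Rpl22, -1.33 for Rpl35, -0.95 for Rpl41, -1.10 for Rps18 and -1.91 for Rps9, and the Q7 change of Rpl35 was -1.12. With the mean, Rps18 had -0.70 in Q111 cells and -0.53 in Q7 cells. With gene-median centring, Q111 changes were 0.70 for Rpl4, 0.73 for Rplp2 and 0.62 for Rps2. After heat shock, the line difference of Rpl41 was -0.50 with the mean and -1.14 with the dimmest set, and that of Rps6 was 0.74 with the mean, which takes in a set in background range. The cause was not tested. Precision is limited by 3 arrays a group, and compression over 13 can shrink the changes measured there.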
